A study of Mus musculus with 35 samples.

Results

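The 42 genes described here are immediate early and dissociation response genes, chosen as a list of names from the 54119 annotated genes in the data. They were measured in RNA of cells that had been pulled down on magnetic beads by ACSA2, the product of Atp1b2 on the surface of astrocytes, from male C57BL/6JRj mice. The animals ate standard chow (SC) or, from 8 to 9 weeks of age and for 4 months, a high-fat high-sugar diet (HFHS, 58%). The 35 libraries comprised hypothalamus on SC (n = 6) and HFHS (n = 5), hippocampus on SC (n = 5) and HFHS (n = 7), and cortex on SC (n = 6) and HFHS (n = 6). Each library was a pool of tissue from 2 animals, so that spread between libraries is spread between pools. All tissue was dissociated with the Adult Brain Dissociation Kit before the sort. Cells from hypothalamus and hippocampus passed MS columns with standard reagent volumes, and cells from cortex passed LS columns with scaled volumes, so that region and column cannot be told apart in any comparison with cortex.

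Immediate early genes are transcribed within minutes of a stimulus without new protein synthesis, from promoters that are bound by factors such as CREB and SRF before the stimulus arrives. Calcium entry, growth factors and stress reach those factors through MAP kinases, and the first proteins made are themselves mostly transcription factors (FOS and JUN proteins, which pair to form AP-1, the EGR zinc fingers and the NR4A nuclear receptors) and inhibitors of the same signals (DUSP phosphatases, the mRNA decay factor ZFP36). In brain they mark recently active neurons, and glia induce them after injury or stress. Enzymatic dissociation of fresh brain tissue at warm temperature is also known to induce many of them. Levels in sorted cells can therefore hold RNA made in the animal and RNA made during preparation, and these cannot be told apart in these libraries.

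Promoters of 6 listed genes are shown because the levels and tests below turn on these genes or because they differ in motif content. Promoters were taken from RefSeq (build GRCm38.p6) as the 250 bases before and 50 bases after the annotated start, and 32 of the 42 genes had an entry. Capitals mark the core of the cAMP response element (CRE core) TGACG or its complement CGTCA, the full CRE TGACGTCA, which contains both core forms, and the EGR site GCGGGGGCG or its complement CGCCCCCGC. Sequences run 5′ to 3′ on the strand of the gene.
Fos, chr12:85473640-85473939, plus strand: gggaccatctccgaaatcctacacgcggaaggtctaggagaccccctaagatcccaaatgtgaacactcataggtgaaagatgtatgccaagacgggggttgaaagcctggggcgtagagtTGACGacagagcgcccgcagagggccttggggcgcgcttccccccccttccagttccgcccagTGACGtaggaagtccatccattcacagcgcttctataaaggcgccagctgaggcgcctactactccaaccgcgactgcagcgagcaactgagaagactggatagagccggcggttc
Fosb, chr7:19309996-19310295, minus strand: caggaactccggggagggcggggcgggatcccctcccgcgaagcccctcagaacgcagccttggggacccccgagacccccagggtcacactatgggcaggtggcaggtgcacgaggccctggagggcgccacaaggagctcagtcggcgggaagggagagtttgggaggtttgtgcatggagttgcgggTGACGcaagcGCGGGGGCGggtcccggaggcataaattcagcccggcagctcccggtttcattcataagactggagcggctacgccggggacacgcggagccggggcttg
Nr4a1, chr15:101266596-101266895, plus strand: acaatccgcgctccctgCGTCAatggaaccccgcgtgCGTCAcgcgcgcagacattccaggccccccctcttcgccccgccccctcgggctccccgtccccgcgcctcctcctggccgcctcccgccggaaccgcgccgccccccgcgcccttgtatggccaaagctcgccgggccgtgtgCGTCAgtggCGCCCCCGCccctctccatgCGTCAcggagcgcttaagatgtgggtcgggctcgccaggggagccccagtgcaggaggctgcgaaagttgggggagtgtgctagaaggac
Npas4, chr19:4989922-4990221, minus strand: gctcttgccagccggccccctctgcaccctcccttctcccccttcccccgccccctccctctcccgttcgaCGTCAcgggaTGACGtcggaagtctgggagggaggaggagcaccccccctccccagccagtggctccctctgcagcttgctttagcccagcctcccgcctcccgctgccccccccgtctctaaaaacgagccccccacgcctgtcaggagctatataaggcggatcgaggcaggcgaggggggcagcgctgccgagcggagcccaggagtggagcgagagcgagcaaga
Dusp1, chr17:26508423-26508722, minus strand: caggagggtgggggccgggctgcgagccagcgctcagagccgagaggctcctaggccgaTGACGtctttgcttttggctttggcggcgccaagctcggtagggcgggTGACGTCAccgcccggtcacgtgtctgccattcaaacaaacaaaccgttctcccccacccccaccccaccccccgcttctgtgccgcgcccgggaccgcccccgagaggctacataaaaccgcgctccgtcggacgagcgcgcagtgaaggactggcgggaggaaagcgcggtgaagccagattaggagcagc
Dusp6, chr10:99262981-99263280, plus strand: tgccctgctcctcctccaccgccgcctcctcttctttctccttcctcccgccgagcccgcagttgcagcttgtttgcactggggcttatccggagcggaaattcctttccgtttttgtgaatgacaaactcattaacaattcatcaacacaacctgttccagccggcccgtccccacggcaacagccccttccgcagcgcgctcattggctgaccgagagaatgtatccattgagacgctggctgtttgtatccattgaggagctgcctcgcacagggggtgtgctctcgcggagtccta

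A CRE core stood in the promoter of 20 of the 32 genes (62.5%), against 23.0% of all 27025 genes in the same table. The Fos promoter held 2 CRE cores, at 129 and 66 bases before the start, and Nr4a1 held 4 together with an EGR site. In Npas4 a pair of cores in opposite orientation began 179 and 169 bases before the start. The full CRE was found in Dusp1, Btg2 and Maff, 9.38% of the listed genes against 2.03% of all genes. An EGR site stood in 7 listed genes (21.9% against 3.31%), Fosb among them. The AP-1 site TGANTCA was found in 2 (6.25% against 8.97%), and the CArG box, the element bound by SRF, in 3 (9.38% against 1.81%). In the Dusp6 window none of these letters was found, which says only that they are not within these 300 bases. Such matches are descriptions of letters and not of binding.

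The libraries held 47578560 to 65982495 reads assigned to transcripts. All 18 astrocyte markers had mean levels above 1 TPM in each region, yet other cell types were present, and their levels moved with region. The summed level of the 18 astrocyte markers had a mean of 17457 TPM in hypothalamus (range 11510 to 41345), 15449 in hippocampus (7158 to 32203) and 41904 in cortex (30364 to 57429). The 12 oligodendrocyte markers summed to 74827, 63262 and 31044 TPM in the same order, so that they exceeded the astrocyte sum in both deeper regions. Microglial markers summed to 1115, 1159 and 952 TPM, endothelial markers to 629, 783 and 1457, neuronal markers to 299, 186 and 422, ependymal markers to 5901, 2383 and 266, and choroid plexus markers to 1911, 23717 and 2304. Oligodendrocyte precursor markers summed to 226, 40.5 and 11.1 TPM, fibroblast markers to 138, 63.9 and 18.8, and markers of mural cells, which wrap blood vessels, to 574, 1171 and 451. Pdgfra was on both the oligodendrocyte precursor and the fibroblast list, so the sums of these lists share that gene. No marker was at 0 in every library. Cortex SC 6 and cortex HFHS 6 stood apart with the shortest read-weighted transcript lengths, 1924 and 2180 bases, where the other libraries lay between 2484 and 2984. Fits without the libraries of short transcript length left out both of these and hypothalamus SC 6, the next shortest at 2484 bases.

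The summed level of the listed genes was higher in hypothalamus and hippocampus than in cortex. It was 5001 ± 1299 TPM in hypothalamus (SD, n = 11, range 2904 to 6636), 4667 ± 1000 TPM in hippocampus (n = 12, 2807 to 6287) and 1061 ± 508 TPM in cortex (n = 12, 425 to 2238). No cortex library reached the lowest library of either other region. The 2 cortex libraries of short transcript length also had the lowest sums, 425 and 432 TPM. On average 38.1, 36.0 and 32.9 of the 42 genes exceeded 1 TPM in a library of hypothalamus, hippocampus and cortex. In these bulk samples, fewer cells of a type that express a gene and less RNA of that gene per cell cannot be told apart.

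**Figure D1:**
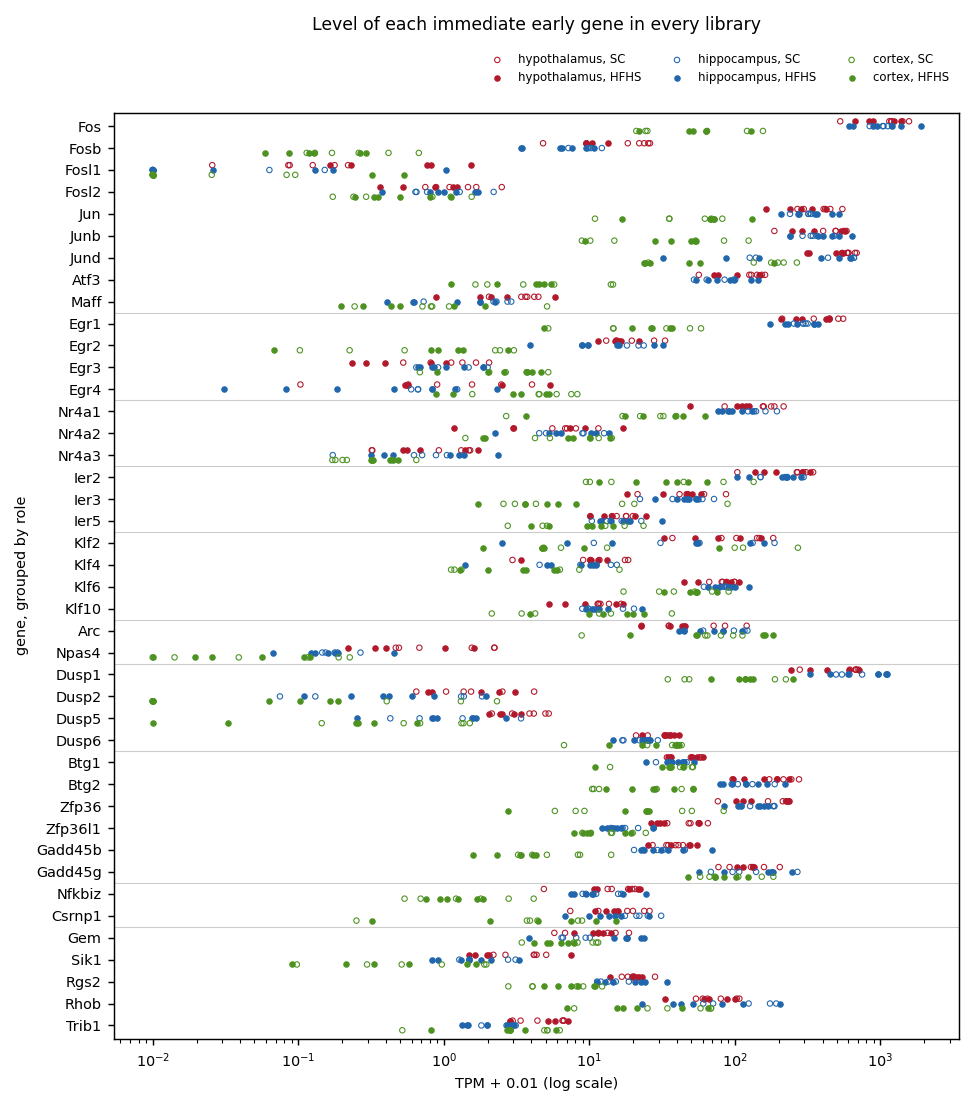
Level of each listed gene in all 35 libraries, as TPM plus 0.01 on a log axis. Open circles are SC and filled circles HFHS, in red for hypothalamus, blue for hippocampus and green for cortex. Fos lies between 529 and 1898 TPM in hypothalamus and hippocampus and at 156 TPM or less in cortex.

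Fos, which encodes the AP-1 partner most often used as a marker of recent activation, had the highest mean of the list in hypothalamus and hippocampus. Its lowest, median and highest levels were 529, 1184 and 1571 TPM in hypothalamus, 612, 1043 and 1898 TPM in hippocampus, and 21.002, 57.3 and 156 TPM in cortex. The cortex libraries thus lay apart from all others, while the other regions spanned the same range. Fos made up 21.7%, 22.7% and 5.91% of the summed level of the list in hypothalamus, hippocampus and cortex. In cortex the highest means of the list were those of Dusp1 (122 TPM) and Jund (115 TPM), followed by Gadd45g, a growth arrest gene (95.2), Arc (87.7) and Fos (65.8), and the ranges of these genes overlapped.

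Between hypothalamus and cortex, averaged over the diets, 31 of the 42 genes passed the test (edgeR quasi-likelihood, Benjamini-Hochberg adjusted over 21574 genes, threshold 0.05), where 43.4% of all genes did. Of these, 28 were higher in hypothalamus, against 22.2% of all genes, and 3 were lower, against 21.2%. The median log2 fold change of the 42 genes was 1.497, beside 0.06 for all genes. Between hippocampus and cortex 26 passed, where 42.8% of all genes did: 21 were higher in hippocampus, against 22.4%, and 5 were lower, against 20.4%, with a median of 1.04 beside 0.06. The comparisons share the cortex libraries, so their values are given side by side and not as separate support for each other. In TPM with limma, 34 were higher and 2 lower in hypothalamus, where 8314 and 1874 of 22586 genes were, and 28 higher and 2 lower in hippocampus, where 7483 and 2192 were. On that scale the median of all genes moved from 0.06 to 0.24 and to 0.19.

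**Figure D2:**
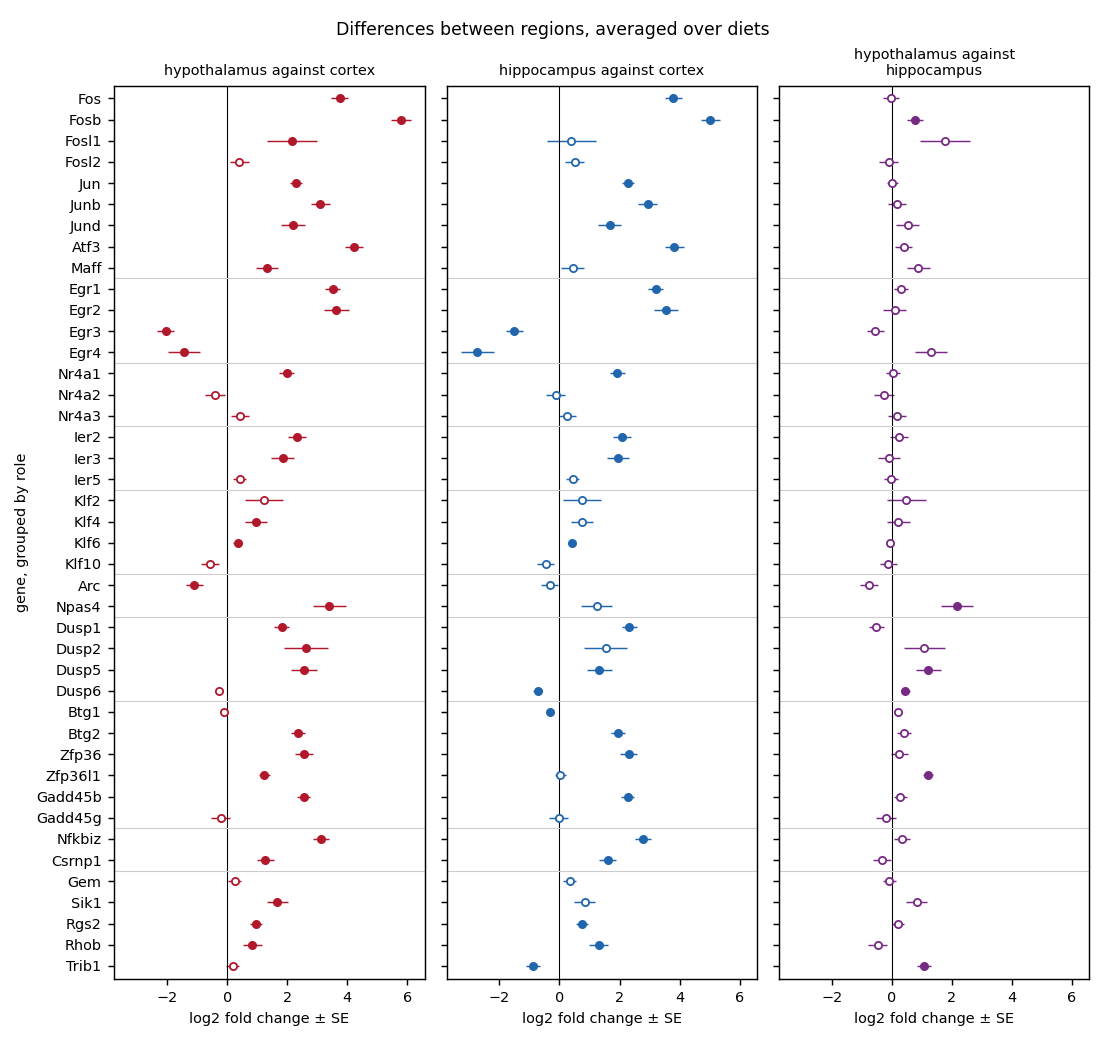
Log2 fold change of each listed gene between regions, averaged over diets, with its standard error. Filled symbols passed an adjusted p of 0.05. Fosb, Atf3, Fos, Egr1 and Egr2 stand farthest to the right in both comparisons with cortex, and Egr3 and Egr4 lie left of 0 in both.

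Groups that did not overlap give a view without a model. Every hypothalamus library lay above every cortex library for 14 listed genes, where 7.14% of all genes did so, and for 0 was it below (0.769% of all genes). The 14 were Fos, Fosb, Jun, Junb, Jund, Egr1, Egr2, Atf3, Dusp5, Btg2, Zfp36l1, Gadd45b, Rgs2 and Nfkbiz. Every hippocampus library lay above every cortex library for 13, against 2.58% of all genes, and for 0 below, against 0.464%. These were Fos, Fosb, Jun, Junb, Egr1, Egr2, Nr4a1, Atf3, Dusp1, Btg2, Zfp36, Gadd45b and Nfkbiz.

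Counts by role, here and below, stand beside the shares of all genes. These were 22.2% higher and 21.2% lower in hypothalamus, and 22.4% higher and 20.4% lower in hippocampus. The roles hold few genes each. Of the 9 AP-1 genes, 8 were higher in hypothalamus than in cortex and 6 were higher in hippocampus. Fosb, whose short splice form ΔFosB accumulates with repeated stimulation, showed the greatest log2 fold changes of the list. Its lowest, median and highest levels were 4.80, 13.3 and 26.1 TPM in hypothalamus, 3.37, 8.53 and 12.2 TPM in hippocampus, and 0.0488, 0.140 and 0.664 TPM in cortex. No cortex library came near the others, and the log2 fold change against cortex was 5.79 ± 0.32 (SE, edgeR adjusted p = 3.6e-15) in hypothalamus and 5.02 ± 0.31 (adjusted p = 4e-13) in hippocampus. Fos was higher by 3.75 ± 0.29 (adjusted p = 1.4e-12) and 3.78 ± 0.28 (adjusted p = 1.9e-11) on the log2 scale in the same edgeR fit.

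Atf3, an AP-1 related factor induced by stress, had lowest, median and highest levels of 56.5, 130 and 161 TPM in hypothalamus, 52.4, 88.9 and 144 TPM in hippocampus, and 1.11, 4.36 and 14.5 TPM in cortex, which lay apart. Its log2 fold changes were 4.23 ± 0.31 and 3.83 ± 0.30. Jun, the main dimer partner of FOS, had lowest, median and highest levels of 163, 341 and 547 TPM in hypothalamus, 206, 325 and 522 TPM in hippocampus, and 10.9, 67.9 and 131 TPM in cortex. Its log2 fold changes were 2.29 ± 0.20 and 2.27 ± 0.20, smaller than those of Fos. Junb, which competes with JUN for partners, differed by 3.11 ± 0.31 and 2.93 ± 0.31 and ranged from 187 to 585 TPM in hypothalamus, 239 to 633 TPM in hippocampus and 8.87 to 124 TPM in cortex. Fosl2 did not pass in either comparison (0.40 ± 0.31 and 0.50 ± 0.31), with means of 1.13, 1.09 and 0.620 TPM in hypothalamus, hippocampus and cortex.

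The 4 EGR genes, zinc finger factors induced by growth factors and neuronal activity, split in both comparisons, with 2 higher and 2 lower. Egr1 had lowest, median and highest levels of 209, 423 and 554 TPM in hypothalamus, 175, 295 and 373 TPM in hippocampus, and 4.88, 26.9 and 58.5 TPM in cortex. No cortex library overlapped with another region, and the log2 fold changes were 3.52 ± 0.25 and 3.20 ± 0.25 (edgeR adjusted p = 3.3e-13 and 2.5e-11). Egr2, known for its role in myelination by Schwann cells, differed by 3.63 ± 0.41 and 3.54 ± 0.40 at lower levels, with medians of 16.1, 15.7 and 1.07 TPM.

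Egr3 and Egr4, named after their values were seen, were lower than in cortex at low levels throughout. Egr3 had lowest, median and highest levels of 0.223, 0.813 and 2.04 TPM in hypothalamus, 0.637, 0.963 and 1.99 TPM in hippocampus, and 0.675, 3.17 and 5.21 TPM in cortex, so that the groups overlapped. Its log2 fold changes were −2.05 ± 0.29 and −1.50 ± 0.28 (edgeR adjusted p = 6.1e-07 and 5.2e-05). Transcripts not annotated as coding held 69.2%, 85.2% and 87.0% of the Egr3 level in hypothalamus, hippocampus and cortex. Egr4 ranged from 0.0935 to 5.33 TPM, 0.0211 to 2.32 TPM and 0.875 to 8.26 TPM, and differed by −1.44 ± 0.53 and −2.74 ± 0.55 (adjusted p = 0.027 and 0.00015). The Egr4 call in hypothalamus was lost without hypothalamus HFHS 2 (adjusted p = 0.051), 3 or 5 (both 0.053), with log2 fold changes of −1.32 in each case, and on HFHS alone (−0.87, adjusted p = 0.45).

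Of the 3 NR4A genes, orphan nuclear receptors that act without a known ligand, only Nr4a1 passed against cortex. Its lowest, median and highest levels were 48.9, 126 and 216 TPM in hypothalamus, 76.0, 117 and 194 TPM in hippocampus, and 2.67, 27.0 and 62.6 TPM in cortex. The hippocampus libraries all lay above cortex, whereas the ranges of hypothalamus and cortex overlapped, and the log2 fold changes were 1.98 ± 0.25 and 1.93 ± 0.24. Nr4a2, which is needed for dopamine neurons, had means of 7.27, 7.91 and 7.47 TPM and log2 fold changes of −0.39 ± 0.33 and −0.13 ± 0.33. Nr4a3 stood at 0.970, 0.879 and 0.339 TPM and did not pass (0.43 ± 0.29 and 0.27 ± 0.29).

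Ier2 and Ier3 of the 3 IER genes, small proteins induced early by serum and stress, were higher in both regions. Ier2 had lowest, median and highest levels of 104, 270 and 345 TPM in hypothalamus, 104, 223 and 297 TPM in hippocampus, and 9.47, 36.8 and 134 TPM in cortex. The upper cortex libraries overlapped with the lower libraries elsewhere, and the log2 fold changes were 2.32 ± 0.31 and 2.07 ± 0.30. Of the 4 Krüppel-like factors, 2 passed in hypothalamus and 1 in hippocampus, where 43.4% and 42.8% of all genes did. Klf6 was higher in both (0.35 ± 0.14, edgeR adjusted p = 0.049, and 0.41 ± 0.14, adjusted p = 0.019).

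Klf4, known from the reprogramming of cells and from endothelium, was higher in hypothalamus than in cortex by 0.96 ± 0.37 (edgeR adjusted p = 0.035), and differed by 0.74 ± 0.37 between hippocampus and cortex (adjusted p = 0.10). Its medians were 10.2, 9.42 and 3.58 TPM, with ranges of 2.95 to 18.5, 1.38 to 15.4 and 1.11 to 16.1 TPM that overlapped. The hypothalamus call was lost when hypothalamus SC 4 or 6, hypothalamus HFHS 1, 3 or 5, cortex SC 2, 3 or 6, or cortex HFHS 3 was left out, with log2 fold changes of 0.86 to 0.94 and adjusted p between 0.051 and 0.065. It was also lost without the libraries of short transcript length (0.77, adjusted p = 0.13), on SC alone (0.76, adjusted p = 0.26) and on HFHS alone (1.16, adjusted p = 0.12). The hippocampus difference passed without cortex SC 4 (1.004, adjusted p = 0.022) and in TPM with limma (0.995, adjusted p = 0.018).

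Npas4 and Arc, which in neurons are induced by synaptic activity, went in opposite directions. Npas4 was low throughout, with lowest, median and highest levels of 0.208, 0.669 and 2.22 TPM in hypothalamus, 0.0571, 0.159 and 0.445 TPM in hippocampus, and 0, 0.0379 and 0.216 TPM in cortex. It was higher in hypothalamus than in cortex by 3.41 ± 0.55 (edgeR adjusted p = 5.7e-06), and hippocampus and cortex differed by 1.24 ± 0.52 (adjusted p = 0.053). Arc, named after its values were seen, had medians of 43.5, 77.2 and 72.4 TPM and overlapping ranges. It was lower in hypothalamus than in cortex by the test (−1.09 ± 0.29, adjusted p = 0.0027), but not in TPM with limma (−0.60, adjusted p = 0.18) or on SC alone (−0.58, adjusted p = 0.26). The markers of neurons summed to 187 to 398 TPM in hypothalamus, 95.4 to 305 TPM in hippocampus and 138 to 735 TPM in cortex, and their part in these differences was not tested.

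Among the 4 DUSP genes, phosphatases that switch off MAP kinases, 3 were higher in hypothalamus, and in hippocampus 2 were higher and 1 lower. Dusp1 had lowest, median and highest levels of 242, 615 and 707 TPM in hypothalamus, 328, 680 and 1112 TPM in hippocampus, and 34.6, 118 and 251 TPM in cortex. The hippocampus libraries all lay above cortex, and the log2 fold changes were 1.81 ± 0.25 and 2.32 ± 0.25. Dusp6, which acts on ERK in the cytoplasm and whose promoter window held none of the motifs searched, was lower in hippocampus than in cortex (−0.73 ± 0.14, edgeR adjusted p = 0.00011) with overlapping ranges of 14.5 to 29.5 and 6.68 to 43.1 TPM. In TPM with limma that call was lost (−0.35, adjusted p = 0.19).

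Of the 6 genes of mRNA decay and growth arrest, 4 were higher in hypothalamus, and in hippocampus 3 were higher and 1 lower. Btg2, an antiproliferative gene, was higher by 2.36 ± 0.24 and 1.94 ± 0.24, with medians of 193, 119 and 27.8 TPM. Zfp36, which speeds the decay of cytokine and early gene mRNAs, was higher by 2.55 ± 0.30 and 2.30 ± 0.30, with medians of 213, 146 and 24.6 TPM. Gadd45b, a stress gene linked to DNA demethylation in neurons, was higher by 2.55 ± 0.22 and 2.28 ± 0.22, with ranges of 25.2 to 54.9, 20.3 to 69.8 and 1.57 to 14.1 TPM that left cortex apart. Btg1 was lower in hippocampus than in cortex by a small amount (−0.31 ± 0.11, edgeR adjusted p = 0.024), although its mean TPM was 39.0 in hippocampus and 36.1 in cortex. That call was lost without hippocampus SC 1 (−0.28, adjusted p = 0.051) and with no filter on low counts (−0.29, adjusted p = 0.070). Its direction turned in TPM (0.19) and on HFHS alone (0.027).

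Both nuclear factors passed in each comparison, Nfkbiz with 3.12 ± 0.27 and 2.79 ± 0.26 and Csrnp1 with 1.27 ± 0.29 and 1.60 ± 0.29. Nfkbiz, an atypical IκB protein that co-activates inflammatory genes, ranged from 4.86 to 22.2 TPM in hypothalamus, 7.49 to 24.7 TPM in hippocampus and 0.527 to 4.14 TPM in cortex. Of the 5 signalling genes, 3 were higher in hypothalamus, where 22.2% of all genes were. In hippocampus 2 were higher and 1 lower, where 22.4% and 20.4% of all genes were. The lower gene was Trib1, a pseudokinase (−0.89 ± 0.23, edgeR adjusted p = 0.0019), which did not pass in TPM with limma (−0.37, adjusted p = 0.18) or on HFHS alone (−0.72, adjusted p = 0.081).

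Hypothalamus and hippocampus were close to each other on this list. Of the 42 genes, 6 were higher in hypothalamus and 0 lower, where 22.2% of all genes passed and 12.5% were higher, and the median log2 fold change was 0.21. No listed gene had every hypothalamus library above or below every hippocampus library, where 1.38% and 0.213% of all genes did. Fos differed by −0.04 ± 0.26 (edgeR adjusted p = 0.95), Jun by 0.02 ± 0.19 (adjusted p = 0.97) and Junb by 0.18 ± 0.29 (adjusted p = 0.73). The 9 genes followed in every comparison, which are Fos, Jun, Junb, Egr1, Nr4a1, Atf3, Ier2, Dusp1 and Klf4, lay between −0.51 and 0.40 with adjusted p of 0.14 or more.

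Zfp36l1, which like Zfp36 promotes mRNA decay, showed the smallest p of these 6. Its lowest, median and highest levels were 26.4, 48.2 and 65.2 TPM in hypothalamus, 12.3, 15.9 and 27.7 TPM in hippocampus, and 7.88, 12.1 and 24.4 TPM in cortex. The highest hippocampus library exceeded the lowest of hypothalamus, and the log2 fold change was 1.21 ± 0.17 (edgeR adjusted p = 6.6e-06). Trib1 followed with 1.07 ± 0.23 (adjusted p = 0.00092) and Npas4 with 2.17 ± 0.53 (adjusted p = 0.0029). Dusp6 (0.45 ± 0.15), Dusp5 (1.22 ± 0.42) and Fosb (0.76 ± 0.26) passed at adjusted p of 0.022, 0.033 and 0.034. Each of these 3 calls was lost without 1 library. For Dusp6 this was hypothalamus HFHS 2 (0.41) or hippocampus SC 1 (0.42), with an adjusted p of 0.051 each. For Dusp5 it was hypothalamus SC 6 or HFHS 1, or hippocampus SC 2, 3 or 4, with log2 fold changes of 1.10 to 1.20 and adjusted p of 0.052 to 0.064. For Fosb it was hypothalamus SC 3, 4 or 6 or HFHS 3, or hippocampus SC 2 or 4 or HFHS 2 or 7, with 0.70 to 0.76 and adjusted p of 0.050 to 0.066, and the replicate block ended it too (0.65, adjusted p = 0.068). On SC alone Zfp36l1 and Npas4 passed, and on HFHS alone Zfp36l1 and Trib1. Dusp6 did not pass in TPM with limma (0.51, adjusted p = 0.096).

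**Figure D3:**
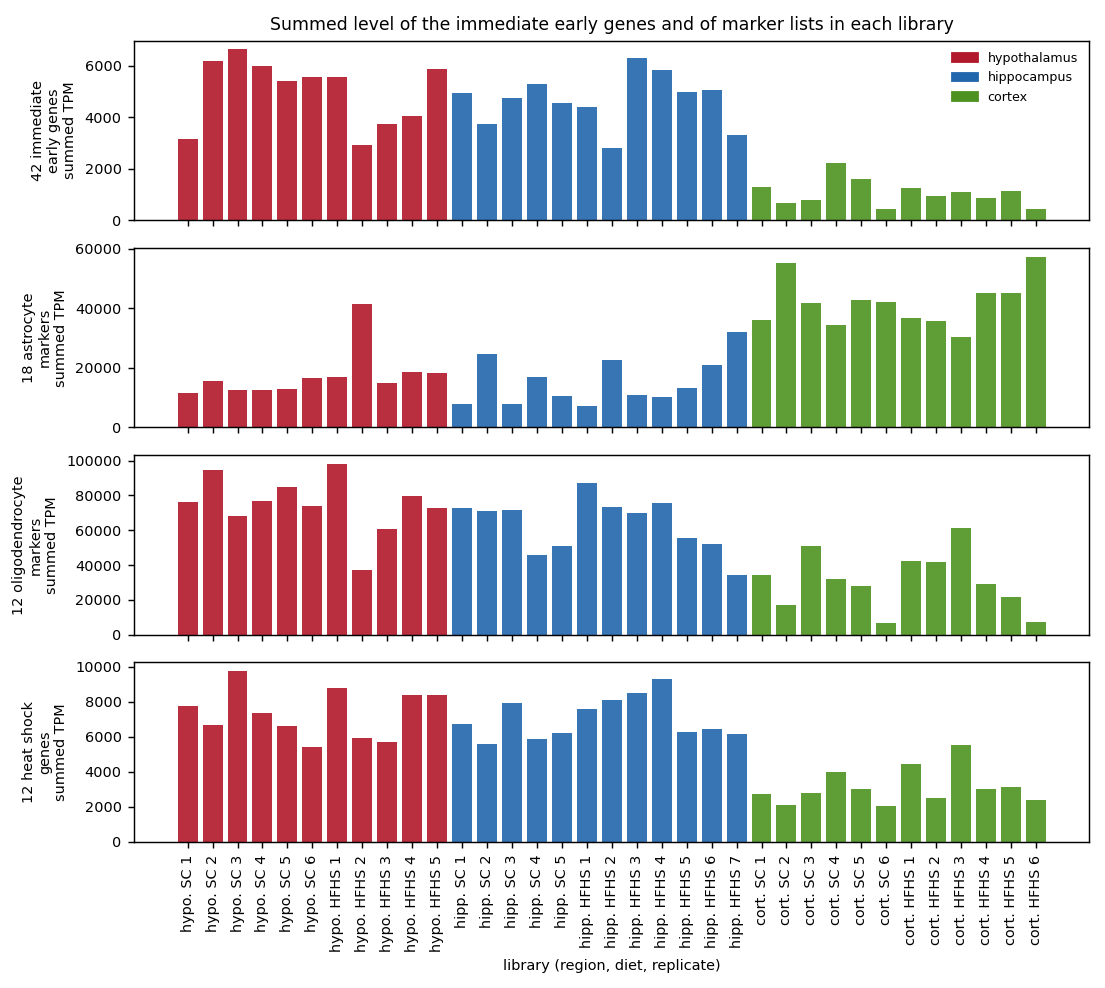
Summed TPM per library of the 42 listed genes, 18 astrocyte markers, 12 oligodendrocyte markers and 12 heat shock genes, as bars from 0. The listed genes, the oligodendrocyte markers and the heat shock genes have higher means in hypothalamus and hippocampus than in cortex, and the astrocyte markers have a lower one.

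Of 12 heat shock genes, chaperones induced by stress and temperature, 10 were higher and 0 lower in hypothalamus than in cortex, with a median log2 fold change of 1.16, and 9 were higher and 0 lower in hippocampus, with a median of 0.98. These are 10 and 9 of 12 genes beside the 22.2% and 22.4% of all genes given above. Hspa1a, an inducible HSP70 gene, was higher by 3.03 and 3.05, its near-identical neighbour Hspa1b by 2.95 and 2.85, and Dnajb1, a partner of HSP70, by 2.20 and 2.01. The summed level of the 12 genes was 7359 TPM in hypothalamus (range 5441 to 9771), 7064 in hippocampus (5610 to 9309) and 3144 in cortex (2025 to 5547). Reads of Hspa1a and Hspa1b are divided between near-identical sequences, and their separate levels are uncertain.

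Among 26 further early response genes, 11 were higher and 5 lower in hypothalamus than in cortex (median 0.45), and 10 higher and 7 lower in hippocampus (median 0.27). Dusp14, a further MAP kinase phosphatase, was higher by 2.94 and 1.93 on the log2 scale, and Ppp1r15a, which restarts translation after stress, by 1.43 and 1.34. Of 24 kinases and factors upstream of the early genes, 4 were higher and 4 lower in hypothalamus, and 4 higher and 1 lower in hippocampus, with medians of −0.16 and 0.06. Among all genes the shares higher and lower were 22.2% and 21.2% in hypothalamus and 22.4% and 20.4% in hippocampus, above those of the upstream list. Srf, which binds the CArG box, was higher in hypothalamus by 1.35, and Crtc1, a CREB co-activator, was lower by 0.82 and 1.13 on the log2 scale. Between hypothalamus and hippocampus, 1 heat shock gene (Hsph1, 0.64), 8 further early response genes and 2 upstream genes were higher in hypothalamus, and 0, 1 and 2 were lower. Beside the differences from cortex, astrocyte markers were lower and oligodendrocyte markers higher in mean in both deeper regions, and their part was not tested.

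No listed gene passed the test for diet in any region. In hypothalamus 0 of 41 tested passed, in hippocampus 0 of 41 and in cortex 0 of 39, where 0.0% of all genes did in each region (edgeR, 19272, 19036 and 17844 genes). At an unadjusted p under 0.05 stood 5, 3 and 7 of them, beside 1639, 984 and 1652 of all genes. With DESeq2, 0, 0 and 3 of the listed genes passed, beside 87, 15 and 504 of all genes. For diet, edgeR also passed 0 of the 12 heat shock genes, 0 of the 26 further early response genes and 0 of the 24 upstream genes in each region. At an unadjusted p under 0.05 stood 0, 2 and 0 of the heat shock genes, 3, 0 and 3 of the further early response genes and 3, 2 and 4 of the upstream genes in hypothalamus, hippocampus and cortex. Fosl1 was too low to be tested in any region, and Dusp2 and Npas4 in cortex. The median log2 fold change of the list, HFHS against SC, was −0.18 in hypothalamus, 0.039 in hippocampus and −0.41 in cortex. Leaving out 1 library moved it between −0.30 (without SC 1 or HFHS 1) and −0.045 (without HFHS 2) in hypothalamus, where it moved by over 1.5 times also without SC 4 or 6 or HFHS 4 or 5. In hippocampus it moved between −0.015 (without SC 3) and 0.17 (without SC 4), and by over 1.5 times also without SC 2 or 5 or HFHS 2, 3, 4 or 7. In cortex it stood at −0.074 without SC 4, and without any other library it reached from −0.53 to −0.29.

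**Figure D4:**
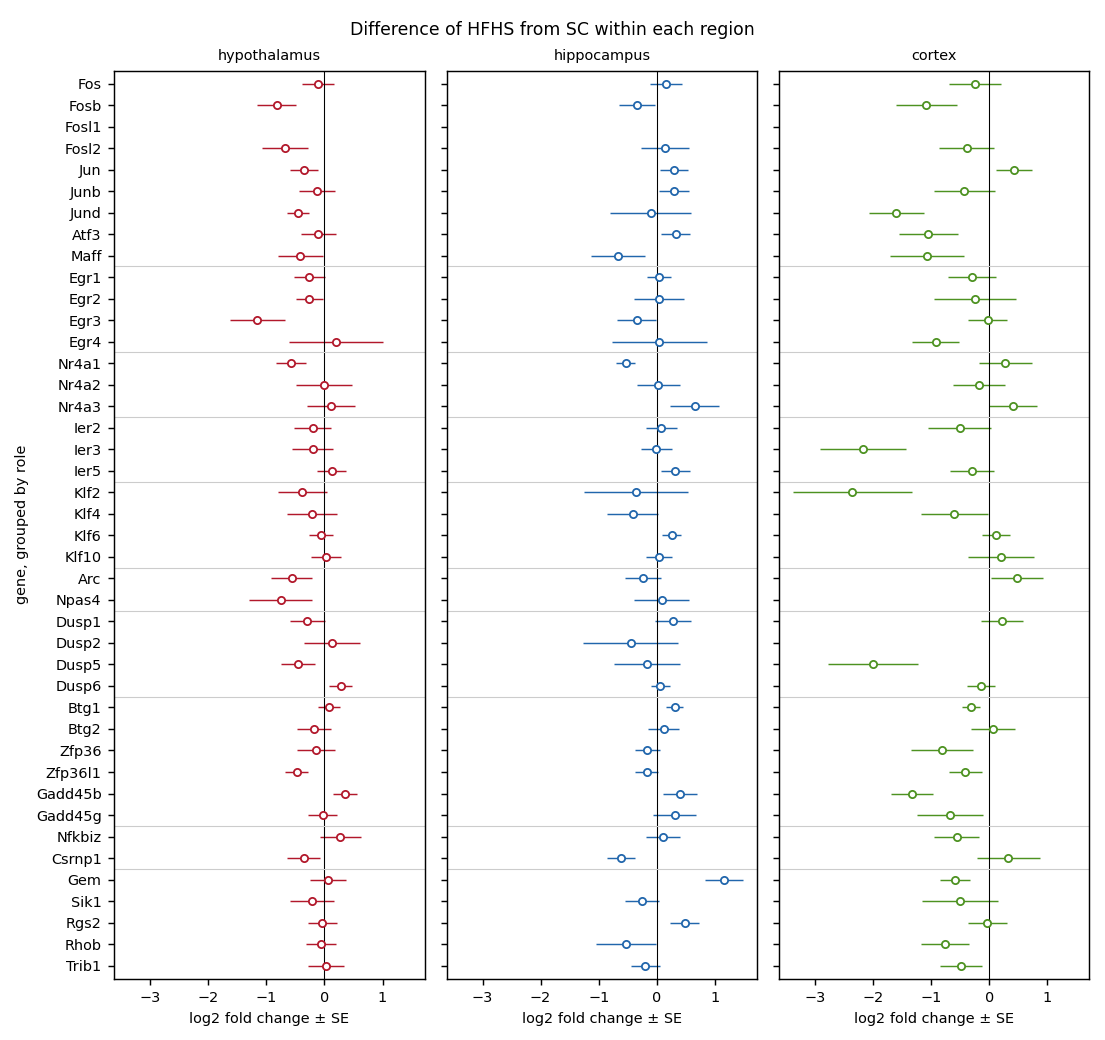
Log2 fold change of each listed gene between HFHS and SC within each region, with its standard error. Symbols are open because no gene passed an adjusted p of 0.05, and genes not tested are missing. In cortex the estimates reach from −2.35 to 0.48 and in hippocampus from −0.67 to 1.16.

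Fos, the leading gene, stood at 999 ± 295 TPM on HFHS (n = 5) and 1174 ± 356 TPM on SC (n = 6) in hypothalamus, 1082 ± 456 (n = 7) and 1051 ± 133 (n = 5) in hippocampus, and 62.9 ± 36.0 and 68.6 ± 57.4 (n = 6 each) in cortex. The groups overlapped in each region, and the log2 fold changes were −0.11 ± 0.28, 0.16 ± 0.28 and −0.25 ± 0.45. The 9 genes followed throughout lay between −0.58 and −0.11 in hypothalamus, −0.54 and 0.32 in hippocampus and −1.05 and 0.42 in cortex, with edgeR adjusted p of 0.57, 0.88 and 0.57 or more.

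In cortex the smallest p belonged to Gadd45b, Jund and Ier3, each with a lower estimate on HFHS. Gadd45b had lowest, median and highest levels of 3.23, 6.72 and 14.1 TPM on SC and 1.57, 3.36 and 4.26 TPM on HFHS, which overlapped, and its log2 fold change was −1.33 ± 0.36 (edgeR adjusted p = 0.18). Jund, an AP-1 member known for steady expression in resting cells, had 25.4, 188 and 266 TPM on SC and 23.6, 37.3 and 187 TPM on HFHS, with −1.60 ± 0.48 (adjusted p = 0.24). In hippocampus and cortex Jund was not steady within a diet. Its range was narrower in hypothalamus, with 545 to 686 TPM on SC and 314 to 557 TPM on HFHS. In hippocampus it ranged from 126 to 658 TPM on SC and from 32.2 to 626 TPM on HFHS. Ier3 had 2.56, 10.5 and 89.0 TPM on SC and 1.71, 4.37 and 8.14 TPM on HFHS, with −2.17 ± 0.74 (adjusted p = 0.31). DESeq2 passed these 3 genes (−1.33, adjusted p = 0.013, −1.61, adjusted p = 0.027, and −2.18, adjusted p = 0.044). Without cortex HFHS 1, Jund passed with edgeR (−2.30, adjusted p = 0.020), as did 133 of all genes. Endothelial markers summed to 184 to 5477 TPM on SC and 284 to 1913 TPM on HFHS in cortex, and their part in these estimates was not tested.

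In hypothalamus the smallest p belonged to Egr3 (−1.16 ± 0.48), Zfp36l1 (−0.48 ± 0.20) and Fosb (−0.82 ± 0.34), each with an edgeR adjusted p of 0.55. The 5 HFHS libraries held 9.50, 9.51, 13.3, 10.5 and 9.46 TPM of Fosb, and the SC libraries had a lowest, median and highest level of 4.80, 22.9 and 26.1 TPM. The lowest SC library, SC 1, lay below every HFHS library, and the remaining SC libraries (18.4 to 26.1 TPM) lay above every HFHS library. SC 1 also had the lowest summed level of the list in its group (3150 TPM). Astrocyte markers summed to 13629 ± 1973 TPM on SC and 22050 ± 10877 TPM on HFHS in hypothalamus. Oligodendrocyte precursor markers summed to 321 ± 105 TPM on SC (range 200 to 488) and 112 ± 79.3 TPM on HFHS (38.8 to 233). The part of either cell type in these estimates was not tested.

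In hippocampus the smallest p belonged to Gem (1.16 ± 0.33), Nr4a1 (−0.54 ± 0.16) and Csrnp1 (−0.61 ± 0.24), each with an edgeR adjusted p of 0.88. Gem, a small GTPase that restrains calcium channels, stood at 6.43, 10.1, 6.57, 9.42 and 8.11 TPM in the SC libraries and at a lowest, median and highest level of 3.87, 18.1 and 23.9 TPM on HFHS. Nr4a1 stood at 136, 123, 162, 194 and 140 TPM on SC and at 76.0, 91.1 and 131 TPM on HFHS. The groups overlapped for both genes. Oligodendrocyte precursor markers summed to 55.9 ± 15.7 TPM on SC and 29.6 ± 11.7 TPM on HFHS in hippocampus, and mural markers to 932 ± 259 and 1342 ± 345 TPM, and their part was not tested.

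No listed gene passed the test for a difference of the diet effect between regions, and 0.0% of all 21574 genes passed in each of the 3 contrasts (edgeR interaction). An unadjusted p under 0.05 was reached by 3 listed genes for hypothalamus against cortex, 6 for hippocampus against cortex and 1 for hypothalamus against hippocampus, beside 2496, 2007 and 433 of all genes. Gadd45b showed the smallest p in both contrasts with cortex, with differences of 1.71 ± 0.42 (adjusted p = 0.16) and 1.76 ± 0.42 (adjusted p = 0.44) on the log2 scale. With DESeq2 it passed both (1.72, adjusted p = 0.021, and 1.78, adjusted p = 0.037), and Gem passed for hippocampus against cortex (1.79, adjusted p = 0.039), beside 141 and 23 of all genes. In edgeR, Gem differed by 1.81 ± 0.43 (adjusted p = 0.44) and Btg1 by 0.67 ± 0.22 (adjusted p = 0.47) in that contrast. Ier3 (1.98 ± 0.75, adjusted p = 0.31) and Dusp2 (2.93 ± 1.42, adjusted p = 0.42) followed for hypothalamus against cortex. For hypothalamus against hippocampus the smallest p belonged to Gem (−1.11 ± 0.44), Jun (−0.66 ± 0.39) and Egr3 (−0.83 ± 0.56), each with an adjusted p of 1.0. The 9 genes followed throughout lay between −0.83 and 0.96, −0.78 and 1.41, and −0.66 and 0.20 in the 3 contrasts.

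Libraries of the same region and diet differed in the listed genes by about as much as in all genes tested. Spread on this scale also depends on the number of reads, and the list was not matched for level to all genes. The SD of log2 CPM within groups, pooled over the 6 groups, had a median of 0.742 over the 42 genes and 0.682 over all 21574. By group the medians of the list were 0.590 and 0.567 in hypothalamus (SC and HFHS), 0.390 and 0.565 in hippocampus and 0.853 and 0.702 in cortex, beside 0.465, 0.514, 0.506, 0.602, 0.697 and 0.736 for all genes. Fos itself lay near the middle of all genes, with a pooled SD of 0.662, and Jund had the widest spread of the AP-1 genes (1.06). Klf2, a factor of quiescent endothelium, had the widest spread (1.74, above 98.1% of genes), with 2.51 to 187 TPM in hippocampus and 1.84 to 271 TPM in cortex. Btg1 had the narrowest (0.249, above 4.64% of genes), followed by Klf6 (0.332) and Dusp6 (0.349).

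Part of the list varied together between libraries. With group means subtracted, Pearson r over the 35 libraries had a median of 0.281 over the 861 pairs of listed genes and exceeded 0.7 in 67 of them, from −0.650 for Gadd45g with Arc to 0.951 for Ier2 with Junb. These are descriptions over libraries that share depth, sort and preparation. The 10 genes most like Fos by r, of 10167 whose mean log2 CPM reached 3, were Atf3 (0.83), Junb (0.83), Egr1 (0.83), Jun (0.77), Dusp1 (0.75), Zfp36 (0.75), Ier2 (0.74), Btg2 (0.72), Rrad (0.71) and Tpm3 (0.69). Of these, 8 were on the list, which had 30 genes among those compared, and the median r of all compared genes with Fos was −0.06. By role, the median r was 0.752 among the 3 IER genes, 0.582 among the 4 Krüppel-like factors, 0.346 among the AP-1 genes and −0.027 among the signalling genes.

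**Figure D5:**
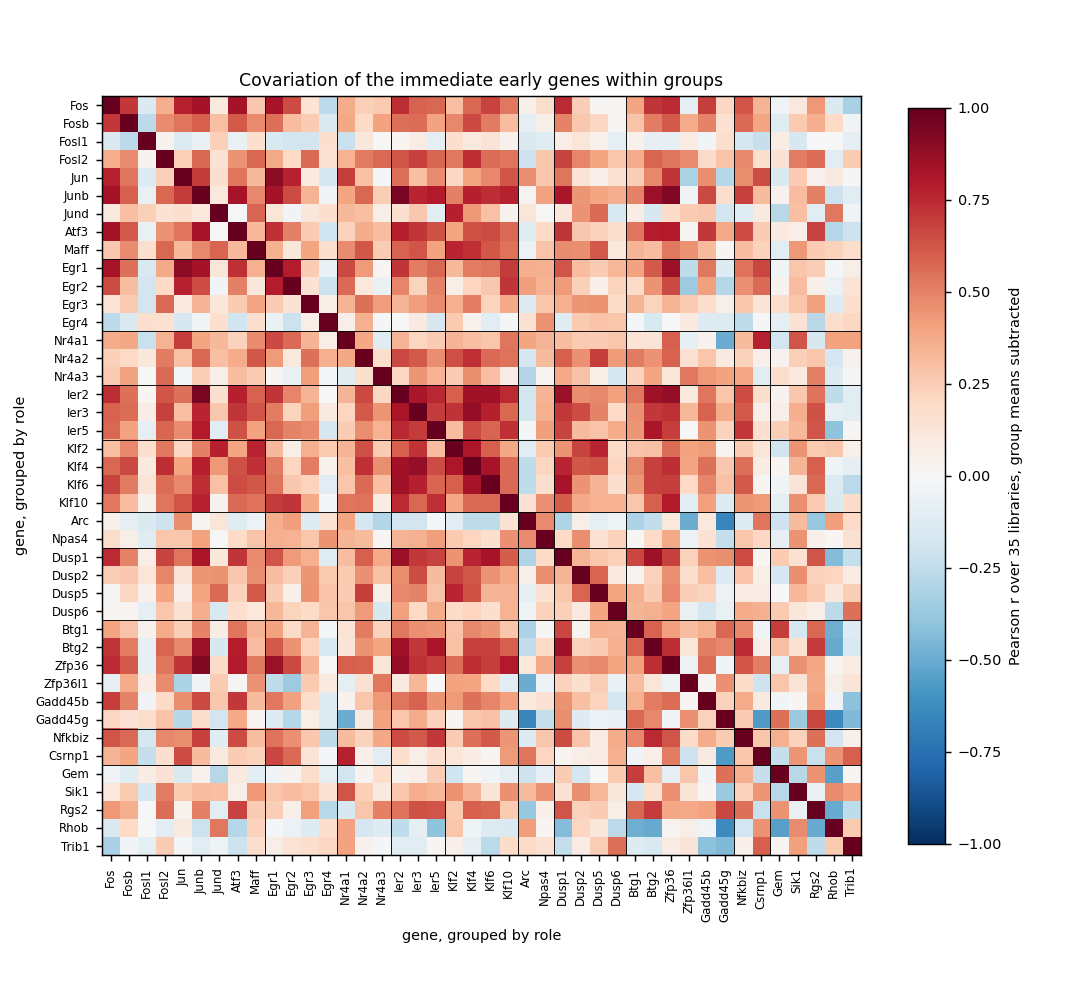
Pearson r of log2 CPM between the listed genes over 35 libraries, with the mean of each region and diet group subtracted. Genes are ordered by role. Fos has r of 0.74 to 0.83 with Atf3, Junb, Egr1, Jun, Dusp1, Zfp36 and Ier2, which lie in several roles. Pairs range from −0.650 to 0.951.

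The list also varied with markers of some other cell types between libraries. Its mean log2 CPM followed the mean of the 12 endothelial markers with r = 0.82 (Spearman rho = 0.73, n = 35, group means subtracted), and without the 2 libraries farthest from the endothelial median with r = 0.74. Within hypothalamus (n = 11), hippocampus (n = 12) and cortex (n = 12) r was 0.50, 0.66 and 0.95, and without the 2 farthest libraries of each it was 0.18, 0.48 and 0.94, so that in hypothalamus it rested on those libraries. For microglial markers r was 0.69 (rho = 0.64), with 0.75, 0.12 and 0.83 within regions, and 0.62, −0.064 and 0.75 without the 2 farthest libraries. For mural markers it was 0.68 (rho = 0.60), with 0.22, 0.41 and 0.94 within regions, and −0.37, 0.28 and 0.96 without the 2 farthest. For ependymal markers r was 0.016 (rho = 0.11), with 0.65, 0.58 and −0.30 within regions. Without the 2 farthest these were 0.70, 0.87 and −0.080. For oligodendrocyte markers it was −0.24 (rho = −0.088), with −0.048, −0.20 and −0.31 within regions. Without the 2 farthest these were 0.74, −0.25 and 0.093. Markers of choroid plexus, neurons, fibroblasts and oligodendrocyte precursors gave 0.36, 0.39, 0.39 and 0.41, and astrocyte markers −0.36. Fos alone had r = −0.44 with the astrocyte markers (rho = −0.45), with −0.047, −0.73 and −0.81 within regions, and 0.37, −0.77 and −0.74 without the 2 farthest libraries. With the microglial markers Fos had r = 0.58 (rho = 0.47), and 0.51 without the 2 farthest. Within regions it was 0.74, 0.15 and 0.67, and 0.51, −0.12 and 0.29 without the 2 farthest libraries of each. With the endothelial markers Fos alone had a lower r than the mean of the list, 0.41 (rho = 0.28). It was 0.32, −0.014 and 0.54 within regions, and 0.16 over all libraries without the 2 farthest. With the mural markers Fos had r = 0.38 (rho = 0.13), and 0.25 without the 2 farthest. Within regions it was −0.046, 0.29 and 0.60, and −0.58, 0.067 and 0.46 without the 2 farthest libraries of each. The part of these cells in the levels of the list was not tested.

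Salmon divides reads among the transcripts of a gene, and these shares overlapped between regions. For Fosb, the coding transcript of 3782 bases held a mean of 70.0% of the level in hypothalamus (range 39.7% to 77.8%) and 56.3% in hippocampus (16.0% to 80.0%), and the coding transcript of 3523 bases held 17.1% (7.56% to 37.5%) and 32.8% (3.27% to 72.9%). In cortex, where Fosb was low, these shares ranged from 0% to 100%. Klf6 transcripts not annotated as coding held 48.0%, 51.0% and 50.4%. The spans of 10 listed genes, introns included, overlap the span of another annotated gene. Whether exons overlap was not checked, so reads of these genes may be uncertain. The libraries do not keep strand, which matters for partners on the opposite strand. Among these were Prdx2 with Junb (mean 342 TPM) and Ergic1 with Dusp1 (45.3 TPM). Csrnp1 overlaps Cx3cr1, a microglial gene on the same strand (19.3 TPM). Some partners had no level, such as Gm24748 with Atf3 (0 TPM).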

How the data were processed

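RNA of ACSA2-sorted cells was sequenced in 35 libraries of 6 groups (region and diet), each a pool of 2 animals. Each deposited file lists transcripts with an estimated count and a TPM value, which the authors made with Salmon on GRCm38, with FastQC named too, per the submitters' processing notes. Versions, trimming and transcript set were not given in the sources used here. Estimated counts and deposited TPM values were summed per gene by GENCODE release M21, after leaving out 1096 transcripts without a match (0.214% to 0.535% of a library's counts), and counts were rounded.

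Tests used edgeR 4.0.16 under R 4.3.3 (filterByExpr, TMM, robust quasi-likelihood test, Benjamini-Hochberg over all genes, threshold 0.05). Diet was tested within each region, and region differences and interactions came from 1 model of the 6 groups. Standard errors are the log2 fold change over the root of F. A prior count of 2 was used for log2 CPM. Deposited TPM is scaled within a library, so that 1 abundant cell type lowers all other values. Named genes are 9 followed in every comparison and up to 12 listed genes past the threshold by p, or the 3 of smallest p where fewer than 3 passed. Up to 4 genes of another list by p were eligible, and lower genes were added after their values were seen. The 42 genes, the lists and the tests were chosen with earlier results of these data known. P values measure only the spread between pools. Alternatives were DESeq2 1.42.0, RLE scaling, no filter, limma 3.58.1 on log2(TPM + 1) for genes of mean TPM of at least 0.1, the replicate number as a block, single diets, and libraries left out. The procedure was tested on simulated data.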

Additional observations from a re-analysis of the deposited data

Results flagged for a closer look

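In 6 of 60 checks, each of 1 quantity in 1 group of region and diet, 1 library lay far from the others of its group. By chance a single check flags a library about 1 time in 20. The checks share libraries, and the summed level contains the single genes. They are therefore not independent, and 6 of 60 cannot be set against that rate. Of the 6 flags, 4 concerned hypothalamus SC 1, the lowest of its group in each case. These 4 are the summed level and genes within it, and not separate evidence. Its summed level of the 42 genes was 3150 TPM, where the other 5 libraries lay between 5406 and 6636 TPM. Atf3 stood there at 56.5 TPM (others 126 to 161), Ier2 at 104 TPM (others 266 to 345) and Dusp1 at 279 TPM (others 615 to 706). In hippocampus SC 5, Jun stood at 239 TPM (others 319 to 334). Dusp1 was high in cortex HFHS 5, at 251 TPM (others 68.3 to 133).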

How the results depend on the processing

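Counts of listed genes past the threshold kept within 1.5 times of those reported in 54 of 59 alternatives and 174 of 175 fits without 1 library. The exceptions were DESeq2 for diet in cortex (3) and for the interactions of hypothalamus (1) and hippocampus (2) against cortex, and hypothalamus against hippocampus on SC alone (2) or HFHS alone (2). Without 1 library, diet in cortex gave 0 to 1, hypothalamus against cortex 28 to 33, hippocampus against cortex 25 to 31 and hypothalamus against hippocampus 4 to 7. In the comparisons for diet and for interactions, 0 listed genes and 0.0% of all genes had passed. A count of 0 in both fits was scored as kept, so for these comparisons the tallies say little about stability. Calls of named genes that an alternative ended or added stand beside those genes or follow here. Between hypothalamus and hippocampus those lost on SC alone were Trib1 (0.97, edgeR adjusted p = 0.062), Dusp6 (0.35, adjusted p = 0.33), Dusp5 (1.36, adjusted p = 0.17) and Fosb (1.01, adjusted p = 0.093), and on HFHS alone Npas4 (1.74, adjusted p = 0.14), Dusp6 (0.55, adjusted p = 0.094), Dusp5 (1.08, adjusted p = 0.29) and Fosb (0.52, adjusted p = 0.45). Without the libraries of short transcript length (cortex SC 6, cortex HFHS 6 and hypothalamus SC 6) the region counts were 30, 28 and 8.

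The labels do not say what libraries of the same replicate number share, so the numbers were not taken to pair the samples. Deviations of same-numbered libraries correlated above 0.1 in 11 of 32 pairs across regions and 10 of 16 across diets. With the replicate block, 32, 27 and 9 genes passed between regions and 0 for diet, and Fosb was lost between hypothalamus and hippocampus (0.65, edgeR adjusted p = 0.068).

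Signs turned in log2 fold changes that had not passed, apart from Btg1 between hippocampus and cortex (0.19 with limma on TPM, 0.027 on HFHS alone), and the cause was not tested. With the block, diet in hypothalamus gave 0.0046 for Atf3 and 0.016 for Klf4, and Jun gave −0.057 between hypothalamus and hippocampus. The block interaction was −0.081 for Junb, −0.16 for Egr1, −0.097 for Ier2 and −0.051 for Klf4 in hypothalamus against cortex, and 0.076 for Jun, −0.00781 for Dusp1 and −0.24 for Klf4 in hippocampus against cortex. With limma on TPM, diet gave −0.052 for Fos, −0.10 for Egr1 and −0.069 for Ier2 in hippocampus, and 0.13 for Fos, 0.13 for Junb and 0.076 for Ier2 in cortex. The limma interaction was −0.34 for Fos, −0.30 for Junb, −0.32 for Egr1, −0.32 for Ier2 and −0.032 for Klf4 in hypothalamus against cortex. For hippocampus against cortex it was −0.19 for Fos, −0.013 for Junb, −0.062 for Egr1, −0.14 for Ier2, −0.44 for Dusp1 and −0.39 for Klf4. Between hypothalamus and hippocampus, Fos gave 0.017 with limma and 0.11 on SC alone, and on HFHS alone Jun gave −0.31 and Junb −0.044. Without the libraries of short transcript length, of which only SC 6 is from hypothalamus, Atf3 gave 0.024 for diet in hypothalamus. Egr1 then gave −0.012 for the interaction of hypothalamus against cortex.

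Without 1 library, diet estimates spanned 0 for Atf3 in hypothalamus (−0.29 to 0.042), for Fos (−0.054 to 0.27), Egr1 (−0.044 to 0.14) and Ier2 (−0.018 to 0.21) in hippocampus, and for Fos (−0.50 to 0.062) and Dusp1 (−0.0039 to 0.46) in cortex. Between hypothalamus and hippocampus these were Fos (−0.10 to 0.076), Jun (−0.062 to 0.087) and Nr4a1 (−0.00104 to 0.13). Interactions spanning 0 were Fos (−0.15 to 0.41), Junb (−0.090 to 0.54), Egr1 (−0.20 to 0.24), Ier2 (−0.16 to 0.54) and Klf4 (−0.12 to 0.61) for hypothalamus against cortex, Jun (−0.22 to 0.12), Dusp1 (−0.13 to 0.30) and Klf4 (−0.32 to 0.42) for hippocampus against cortex, and Nr4a1 (−0.19 to 0.11) and Klf4 (−0.018 to 0.41) for hypothalamus against hippocampus. Genes of few reads, such as Npas4, Egr3, Egr4 and Fosl1, carry the most counting error.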
